A study of Mus musculus with 4 samples.

Results

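Histones are the proteins that package DNA, and 56 of the 35556 probe sets on the array named at least 1 histone gene of the replication-dependent and linker families. They were taken by gene symbol from the platform annotation (symbols starting with H1f, H2ac, H2bc, H3c, H4c or the older Hist names), with no measured value used. Of the 56, 30 named 1 gene and 26 named several genes, up to 20. By class there were 8 probe sets for the linker histone H1, 4 for H2A, 16 for H2B, 13 for H3, 12 for H4 and 3 whose symbols fell into several classes. The annotation gave no probe set to the linker histone gene H1f0, which was not analysed here.

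The study compared 2 groups of C57BL/6 mice, with 2 single-colour arrays each. The lymphoma group was CD4+ cells from spleens in which CD4+ lymphoma had developed in mice homozygous for a gene trap (an inserted cassette that interrupts the transcript) in Tet2, an enzyme that oxidises methylated cytosine in DNA. The wild type group was CD4+ splenocytes of control mice. Both groups were collected on magnetic columns with a CD4 antibody, and labelled material was made from total RNA with a whole-transcript kit. Genotype and malignancy cannot be told apart, the labels give neither age nor sex, and they do not say how many animals the samples came from, so p-values measure the spread between these samples. With 4 arrays, precision is low throughout.

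Core histones H2A, H2B, H3 and H4 form the nucleosome, and H1 binds the DNA between nucleosomes. Most of their genes lie in clusters, are transcribed mainly in S phase, when new chromatin is built, and give mRNAs that end in a stem-loop in place of a poly(A) tail. Members of a core class are mostly near-identical copies. A probe set that names several of them reads them together, and one that names 1 gene may still pick up others. Linker genes differ more from each other, and all 8 H1 probe sets named 1 gene each. H1f10 (also called H1X) stands outside the clusters and gives a polyadenylated mRNA, while H1f6, H1f7 and H1f8 are linker histones of the germ line. In human cells, counterparts of some clustered genes, H1f2, H2bc4 and H2bc21 among them, are known also to give polyadenylated mRNAs outside S phase. These were named with the values of the arrays known, and mRNA ends were not measured here.

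The upstream sequences below belong to H1f10, the linker histone gene with the largest log2 difference, the linker genes H1f1, H1f2 and H1f5 and the core genes H2ac4 and H2bc3, chosen because the results below turn on them. Each is the 150 bases before the RefSeq start of the gene (build GRCm38.p6), 5′ to 3′. Capitals mark the letters CCAAT, the TATA box spelled TATAAA, the octamer spelled ATTTGCAT and the H1 box spelled AAACACA, searched on both strands, and no marked motif overlaps another in these stretches. The positions are chr6:87981483-87981632 (minus strand) for H1f10, chr13:23738657-23738806 (plus strand) for H1f2, chr13:23763518-23763667 (plus strand) for H1f1, chr13:21780626-21780775 (minus strand) for H1f5, chr13:23750938-23751087 (plus strand) for H2ac4 and chr13:23746584-23746733 (plus strand) for H2bc3.
H1f10: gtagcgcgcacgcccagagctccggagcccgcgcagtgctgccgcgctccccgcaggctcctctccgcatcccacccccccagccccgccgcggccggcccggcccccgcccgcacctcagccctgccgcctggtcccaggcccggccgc
H1f2: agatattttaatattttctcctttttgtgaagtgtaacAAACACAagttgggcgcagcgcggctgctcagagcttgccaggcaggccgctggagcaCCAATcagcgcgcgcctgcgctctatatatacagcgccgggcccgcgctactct
H1f1: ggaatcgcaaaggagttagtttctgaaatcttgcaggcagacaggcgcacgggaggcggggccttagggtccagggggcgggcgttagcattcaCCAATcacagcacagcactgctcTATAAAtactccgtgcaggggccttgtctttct
H1f5: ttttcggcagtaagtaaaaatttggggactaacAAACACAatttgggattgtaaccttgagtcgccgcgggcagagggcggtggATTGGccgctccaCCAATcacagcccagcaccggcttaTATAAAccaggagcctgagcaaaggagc
H2ac4: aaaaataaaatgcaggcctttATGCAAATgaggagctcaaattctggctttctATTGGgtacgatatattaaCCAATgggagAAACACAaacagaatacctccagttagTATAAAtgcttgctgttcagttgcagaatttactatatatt
H2bc3: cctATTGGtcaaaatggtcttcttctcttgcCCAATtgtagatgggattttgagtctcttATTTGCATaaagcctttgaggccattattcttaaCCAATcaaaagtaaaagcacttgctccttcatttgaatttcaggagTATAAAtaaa

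Promoters were given by RefSeq for 61 of the 66 histone genes that the probe sets named. In the 250 bases before the start, CCAAT was found in 80.6% of 62 histone promoters, against 33.8% of all 32851 promoters, and TATAAA in 45.2%, against 12.4%. CCAAT was in all 17 H2A and all 15 H2B promoters but in 3 of 11 H4 promoters (27.3%). The octamer, a site read by Oct factors, was in 7 of 15 H2B promoters and 6 of 17 H2A promoters, against 1.6% of all promoters. Some H2A and H2B genes lie back to back with overlapping windows, such as H2ac8 and H2bc8. The same CCAAT or octamer site can therefore be counted in both classes, which are not independent. The H1 box was in 5 of 9 linker promoters, against 6.25% of all promoters. It was also in 2 of 17 H2A (11.8%) and 2 of 15 H2B promoters (13.3%), and in none of the H3 or H4 promoters. None of the 4 motifs was found in this window for 7 histone promoters, those of H1f10, H1f7, H3c14, H3c15, H4c2, H4c8 and H4c11, where 54.2% of all promoters held none. A match is a description of letters and not a measured binding site.

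Over the 56 probe sets, lymphoma was called higher at 1 and lower at none, at an adjusted p under 0.05 in limma (Benjamini-Hochberg over all 35556 probe sets). Before adjustment, 3 higher (5.36%) and 1 lower (1.79%) had p under 0.05, against 6.69% and 6.02% of all probe sets. Across all probe sets 0.388% were called higher and 0.847% lower, so 1 call among 56 says little about the family. The median log2 difference of the 56 was 0.28, against -0.05 over all probe sets, and 49 were positive (87.5%, against 42.8% of all). Both lymphoma arrays lay above both wild type arrays for 25 of the 56, where the share over all probe sets was 18%, and below both for 4, where it was 22.9%. Many of the 56 read the same near-identical genes, and 4 of them form pairs with equal values on every array, so these counts are not of independent measurements.

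Linker histones went in both directions. H1f10 had an intensity of 1254 and 858 in lymphoma, against 257 and 253 in wild type. The 2 groups were far apart, and H1f10 was the probe set called higher. Its log2 difference was 2.02 (SE 0.24, 4.07-fold, limma adjusted p = 0.0317). Leaving out a wild type array ended the call, with a limma adjusted p of 0.224 (log2 difference 2.04) without array 1 and 0.185 (2.01) without array 2.

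H1f2, a somatic linker histone (H1.2), showed the opposite order. Its intensity was 927 and 916 in lymphoma, against 1455 and 1645 in wild type. The groups did not overlap and the lymphoma values were nearly equal. The log2 difference of -0.75 (SE 0.17) did not pass (limma adjusted p = 0.140).

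H1f1 and H1f5 are S phase linker histones of the same cluster as H1f2. H1f1 had 1160 and 825 in lymphoma and 769 and 481 in wild type. H1f5 had 1289 and 1370 in lymphoma and 1107 and 662 in wild type. For both, all lymphoma values were above all wild type values, but the distance to wild type array 1 was small, with log2 differences of 0.69 (SE 0.30) for H1f1 and 0.63 (SE 0.28) for H1f5 and limma adjusted p of 0.449 and 0.445. H1f3, a further member of the somatic cluster, had 72.9 and 81.0 in lymphoma, against 88.3 and 62.5 in wild type, so the groups overlapped.

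The germ line linker histones were dim. H1f6, the testis histone H1t, had 76.7 and 69.6 in lymphoma, against 69.2 and 87.8 in wild type. H1f8, the oocyte histone, had 54.3 and 56.3 in lymphoma, against 54.6 and 63.6 in wild type. Both overlapped between the groups. H1f7, a histone of spermatids, had 106 and 137 in lymphoma, against 141 and 175 in wild type, so lymphoma was below without overlap, with a log2 difference of -0.38 (SE 0.23, limma adjusted p = 0.626), which was -0.20 when lymphoma array 1 was left out. No detection calls were used, so these values could not be set against background.

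**Figure D1:**
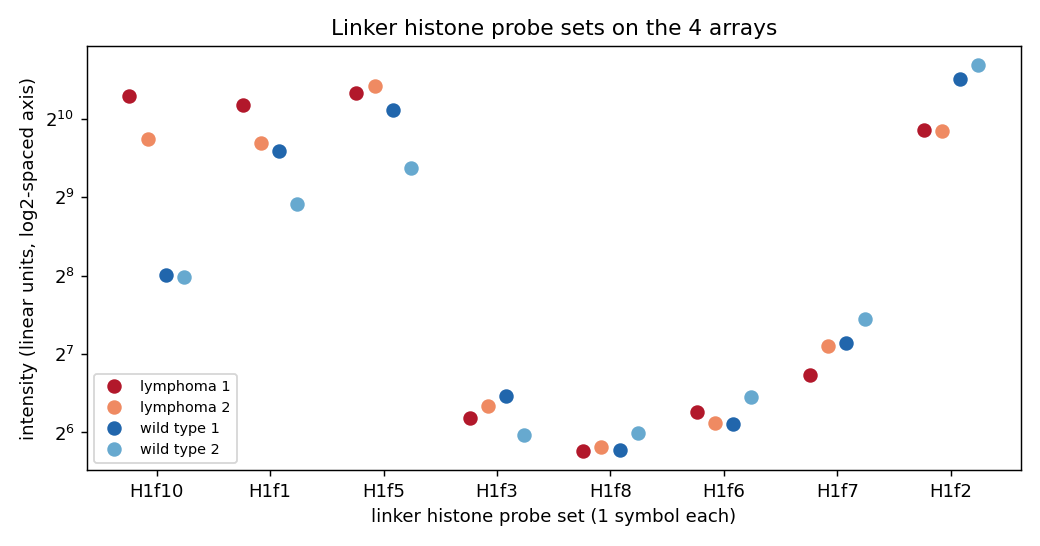
Intensity of the 8 linker histone probe sets on each of the 4 arrays (log2-spaced vertical axis), 1 point per array, ordered by log2 difference. H1f10 stands at 1254 and 858 in lymphoma, above 257 and 253 in wild type, and H1f2 at 927 and 916, below 1455 and 1645.

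Among H2A probe sets, H2ac4 differed most. It had an intensity of 260 and 225 in lymphoma, against 111 and 70.8 in wild type. Every lymphoma value was above every wild type value, and the log2 difference was 1.45 (SE 0.27, 2.73-fold, limma adjusted p = 0.0902), which did not pass. It passed (adjusted p = 0.0319) when 1 probe set per gene was tested over 19938 genes with single-symbol probe sets. H2ac15 had 6433 and 5951 in lymphoma, against 5431 and 3764 in wild type. Its groups were also apart, with a log2 difference of 0.45 (SE 0.21, limma adjusted p = 0.486), which was 0.19 against wild type array 1 alone.

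The remaining H2A probe sets overlapped between groups. H2ac1, a testis H2A, had 412 and 321 in lymphoma, against 381 and 276 in wild type. H2ac8 was dim, with 20.4 and 25.7 in lymphoma, against 16.7 and 21.7 in wild type. A pair of probe sets listed 19 and 20 genes, nearly all H2A with H3c4 among them. Their log2 differences were 0.35 and 0.43, without overlap between the groups.

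H2B probe sets spread most among the core classes. H2bc3 had 1449 and 1061 in lymphoma, against 920 and 475 in wild type. Its log2 difference of 0.91 (SE 0.36) was the largest of the class, and the wild type arrays differed 1.94-fold from each other (limma adjusted p = 0.388). H2bc14 had 2322 and 2044 in lymphoma, against 1973 and 1165 in wild type. Here too wild type array 1 lay close under the lymphoma values, and the log2 difference was 0.52. H2bc9 had 2122 and 1905 in lymphoma, against 1637 and 1362 in wild type, with a log2 difference of 0.43 and no overlap.

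H2bc4 and H2bc21 were the H2B probe sets with negative log2 differences. H2bc4 had 179 and 153 in lymphoma, against 334 and 194 in wild type. H2bc21 had 99.8 and 95.1 in lymphoma, against 121 and 105 in wild type. Neither overlapped between groups, and the log2 differences of -0.62 (SE 0.30) and -0.21 (SE 0.19) did not pass, with limma adjusted p of 0.509 and 0.789. That of H2bc4 was -1.01 against wild type array 1 alone and -0.23 against wild type array 2 alone. Together with H1f2 and H1f7 they are the 4 of 56 whose lymphoma values were both below both wild type values. Over all probe sets that share was 22.9%, so the count is low, and the set was seen only after the values were known.

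The other H2B probe sets had positive log2 differences below those of H2bc3, H2bc14 and H2bc9. H2bc1, a testis H2B, had a log2 difference of 0.32, with wild type array 1 (129) just under the lymphoma arrays (131 and 133). H2bc18 (0.41), H2bc8 (0.38) and H2bc22 (0.07) overlapped between groups. The 7 H2B probe sets that named 14 or 15 genes had log2 differences between 0.27 and 0.29, and 2 of these 7 were without overlap. The brightest, 10403980, had 7767 and 7144 in lymphoma, against 7011 and 5436 in wild type. A probe set that named H2bc6 and the linker gene H1f4 had 309 and 381 in lymphoma, against 296 and 283 in wild type.

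H3 was represented mainly by 10 probe sets that each named the same 12 genes. Their log2 differences lay between 0.33 and 0.40, and all 10 had both lymphoma arrays above both wild type arrays. They read near-identical genes and are not separate measurements. The largest, 10408202, had 9513 and 8989 in lymphoma, against 8205 and 6021 in wild type (limma adjusted p = 0.494). Next came 10403941 with 0.38 and 10408083 with 0.36 on the log2 scale. The brightest, 10404065, had 9412 and 9735 in lymphoma, against 8781 and 6567 in wild type. The probe sets with 1 H3 gene were dim. H3c7 had 33.2 and 28.9 in lymphoma and 28.4 and 33.8 in wild type, a log2 difference of 0.00 within rounding. H3c4 (0.23) and H3c15 (0.28) overlapped as well.

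For H4, wild type array 2 was the low array. H4c6 had 1965 and 1431 in lymphoma, against 2086 and 586 in wild type. Wild type array 1 was the highest of the 4 and wild type array 2 the lowest, so the log2 difference of 0.60 had an SE of 0.59 (limma adjusted p = 0.815). H4c14 had 2991 and 2482 in lymphoma, against 3093 and 1527 in wild type, and H4c3 had 667 and 603 in lymphoma, against 888 and 341 in wild type. The same order held for both.

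H4c4 had 9419 and 8234 in lymphoma, against 9444 and 5680 in wild type. The probe set 10404067, which named 11 H4 genes, had 8930 and 8610 in lymphoma, against 9099 and 6133 in wild type. A dim probe set for H4c17 and H4c11 (10403945) had 103 and 89.7 in lymphoma, against 111 and 47.2 in wild type. The smallest log2 difference of the class was 0.19, at 10408243. In all of these the lymphoma values fell between the wild type values. H4c9 was the exception without overlap, with 171 and 176 in lymphoma, against 146 and 140 in wild type. H4c8 had a log2 difference of 0.28 and overlapped.

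The class medians of the log2 difference were -0.02 for H1, 0.36 for H2A, 0.28 for H2B, 0.33 for H3 and 0.25 for H4. Groups did not overlap, with lymphoma higher, for 3 of 8 H1, 2 of 4 H2A, 6 of 16 H2B, 10 of 13 H3 and 1 of 12 H4 probe sets, against 18% of all probe sets. The 10 H3 probe sets all named the same 12 genes and are not separate measurements, and of the 3 with 1 symbol 0 were above. With lymphoma lower, groups did not overlap for 2 of 8 H1 and 2 of 16 H2B probe sets and for none of the other classes, against 22.9%. The 30 probe sets with 1 symbol had a median of 0.28 and ranged from -0.75 to 2.02, while the 26 with several symbols had a median of 0.31 and ranged from 0.19 to 0.43. Differences between classes were not tested.

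**Figure D2:**
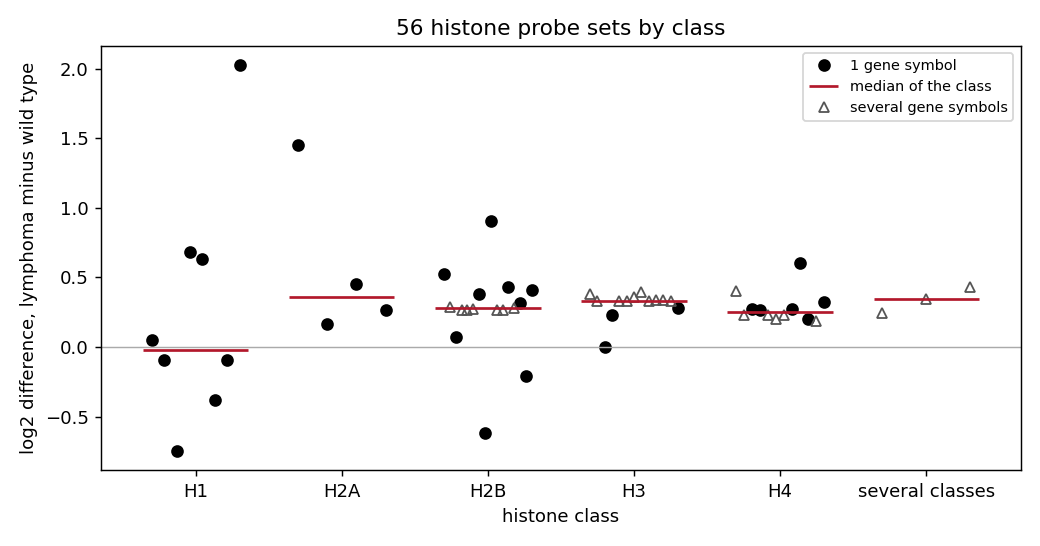
Log2 difference, lymphoma minus wild type, of the 56 histone probe sets by class, with filled circles for 1 gene symbol, open triangles for several and a red line at the class median. H1 spreads from -0.75 to 2.02 around a median of -0.02, and the several-gene probe sets of H2B, H3 and H4 lie between 0.19 and 0.41.

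The size of the core histone difference rested on the wild type array it was set against. Wild type array 1 exceeded wild type array 2 for 47 of the 56 probe sets (83.9%, against 53.6% of all probe sets), by a median of 0.48 on the log2 scale, against 0.03 over all probe sets. For H4 it did so for 12 of 12, with a median of 0.64. The lymphoma arrays differed less from each other, with a median of 0.07 for array 1 minus array 2 over the 56. Without wild type array 1, the median lymphoma difference of the 56 was 0.54, and without wild type array 2 it was 0.08. The lymphoma mean exceeded wild type array 1 for 37 of 56 (66.1%, against 45.4% of all probe sets) and wild type array 2 for 48 of 56 (85.7%, against 45.5%). For H4 these counts were 2 of 12 and 12 of 12, and the class median was -0.09 without array 2 and 0.53 without array 1. H2ac4 kept a log2 difference of 1.13 against wild type array 1 and 1.77 against wild type array 2.

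**Figure D3:**
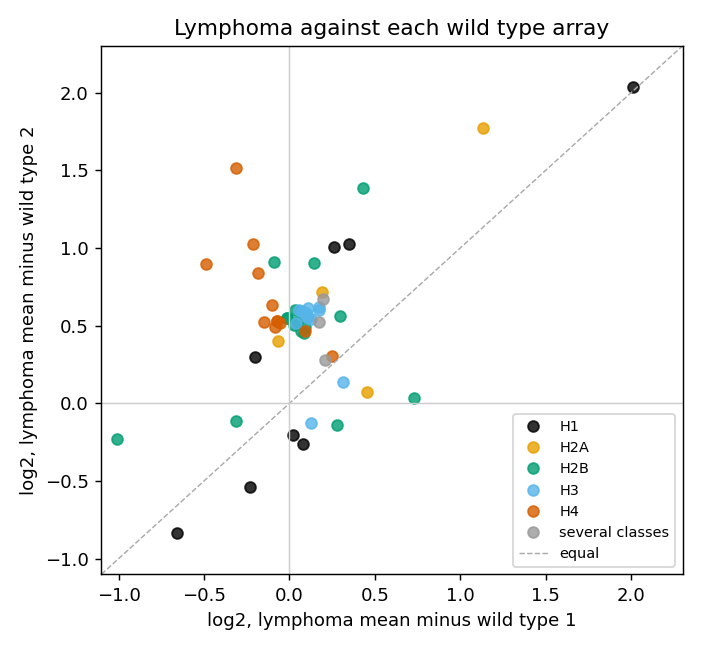
Each point is a histone probe set, with the log2 difference of the lymphoma mean from wild type array 1 on the horizontal axis and from wild type array 2 on the vertical axis, coloured by class. Most points lie above the dashed line of equality, 10 of the 12 H4 points lie left of 0, and H1f10 lies on the line near 2.01 and 2.04.

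Genes that make, process and load histones had positive median differences, and none of them passed over all probe sets. Of 27 measured genes of histone transcription and mRNA processing none was called in limma, and the median log2 difference was 0.23. Before adjustment 4 were higher (14.8%, against 6.69% of all probe sets) and 0 lower (against 6.02%) at p under 0.05 in limma. Log2 differences were positive for 23 (85.2%, against 42.8% of all probe sets). Slbp, the protein that binds the histone stem-loop, had 878 and 916 in lymphoma, against 700 and 528 in wild type. Its log2 difference was 0.56 (SE 0.21, limma adjusted p = 0.357). Lsm10, a subunit of the U7 particle that cuts histone mRNA, had 0.66, and E2f1, a factor of the G1 to S transition, 0.58 on the log2 scale.

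Of 24 histone chaperones none was called in limma, and the median was 0.38. Before adjustment 7 were higher (29.2%, against 6.69% of all probe sets) and 0 lower (against 6.02%) at p under 0.05 in limma. Log2 differences were positive for 22 (91.7%, against 42.8% of all probe sets). Asf1b, which hands H3 and H4 to the assembly machinery, had 1797 and 1580 in lymphoma, against 949 and 762 in wild type. All lymphoma values were above, with a log2 difference of 0.99 (SE 0.20, limma adjusted p = 0.103). Chaf1a and Chaf1b, subunits of the chromatin assembly factor that acts behind the replication fork, had 0.84 and 0.65. Tested over the 19938 genes with single-symbol probe sets, 1 of the 24 passed, the one with the smallest p, Asf1b. In that test 1.82% of all genes were called higher, so 1 call says little about the list.

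Of 8 measured replication-independent histone variants none was called in limma. Before adjustment 2 were higher (25%, against 6.69% of all probe sets) and 0 lower (against 6.02%) at p under 0.05 in limma. Log2 differences were positive for 5 (62.5%, against 42.8% of all probe sets). The median was 0.18, which was 0.04 against wild type array 1 alone and 0.42 against wild type array 2 alone. Cenpa, the centromeric H3, had 786 and 872 in lymphoma, against 529 and 544 in wild type, a log2 difference of 0.63. The H2A.Z genes H2az1 and H2az2 had 0.45 and 0.35. H3f3a, a gene of the variant H3.3, and Macroh2a1, a large H2A variant, had -0.31 and -0.20, with both lymphoma values below both wild type values. The H3f3a probe set was dim, with 50.4 and 58.8 in lymphoma, against 59.7 and 76.8 in wild type (SE 0.22, limma adjusted p = 0.706). Macroh2a1 had 1969 and 1962 in lymphoma, against 2329 and 2180 in wild type (limma adjusted p = 0.744). Macroh2a2, its paralog, was bright on lymphoma array 1 alone, with 494 and 39.7 in lymphoma, against 59.2 and 35.5 in wild type.

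Cell division lists showed larger log2 differences than the core histones on the same arrays. S phase and DNA replication genes had a median of 0.78 over 26 genes, of which 2 rose and none fell, Tyms, the thymidylate synthase, by 1.43 and the helicase subunit Mcm6 by 1.18 (limma adjusted p = 0.0364 and 0.0479). Rrm2, of the enzyme that makes deoxyribonucleotides, was at 1.18 with an adjusted p of 0.0503. Mitosis genes had a median of 1.26 over 19 genes, of which 1 rose, the kinetochore motor Cenpe, by 1.54 (limma adjusted p = 0.0470), and none fell. Bub1 and Mki67 had 1.54 and 1.12. These rises are calls at an adjusted p under 0.05, where 0.388% of all probe sets were called higher. Before adjustment 20 of 26 S phase genes (76.9%) and 19 of 19 mitosis genes were higher at p under 0.05 in limma, against 6.69% of all probe sets. None was lower, against 6.02%. Log2 differences were positive for 25 of 26 and 19 of 19, against 42.8% of all probe sets. With 1 probe set per gene tested, 5 S phase and 8 mitosis genes rose, where 1.82% of all 19938 genes did. The 48 core and several-class histone probe sets had a median of 0.29. Without wild type array 2 the medians were 0.70 for S phase, 1.02 for mitosis and 0.09 for these histone probe sets, and without wild type array 1 they were 0.91, 1.49 and 0.55. The difference between histones and these lists was not tested.

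**Figure D4:**
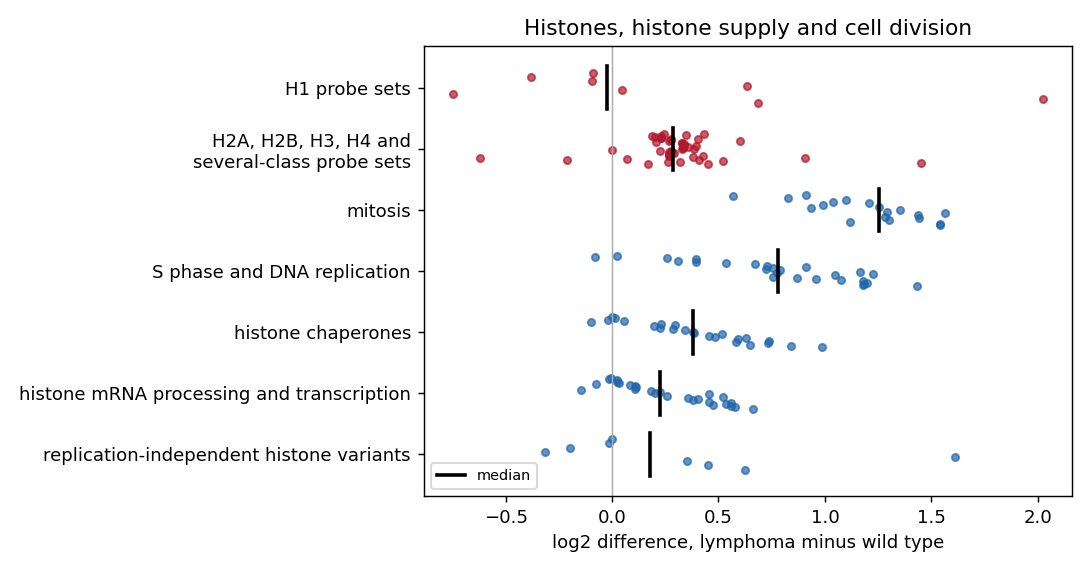
Log2 difference, lymphoma minus wild type, for the histone probe sets (red, upper rows) and for genes of mitosis, DNA replication, histone chaperones, histone mRNA processing and replication-independent variants (blue), 1 point per probe set or gene and a black bar at the median. The core histone median of 0.29 lies below the medians of 0.78 for S phase and 1.26 for mitosis.

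On the same arrays markers of other spleen cells moved with the groups, and fewer cells of a type and less RNA per cell cannot be told apart in bulk samples. The summed intensity of 7 B cell markers was 2188 and 1042 in lymphoma, against 16181 and 10546 in wild type. In limma 3 of 7 were called lower. Over all probe sets 0.847% were called lower and 0.388% higher, the shares to set beside the marker calls below. All 7 were higher on wild type array 1 than on wild type array 2, by a median of 0.64 on the log2 scale. The same order was seen for 6 of 6 plasma cell markers (median 0.63), 18 of 19 mitosis genes (0.34) and 22 of 26 S phase genes (0.20). It was seen for 20 of 24 chaperones (0.22) and 22 of 27 processing genes (0.22), beside the 47 of 56 histone probe sets (0.48). Dendritic cell markers had it for 7 of 7 (0.07), NK and CD8 T cell markers for 5 of 6 (0.47) and T cell markers for 6 of 7 (0.12). Counts were 5 of 8 for histone variants (0.20) and 4 of 8 for macrophage and monocyte markers (0.01). They were 3 of 7 for neutrophil markers (-0.14) and 2 of 6 for erythroid precursor markers (-0.08). The share over all probe sets was 53.6%. Markers of dendritic cells (7 genes) summed to 731 and 756 in lymphoma, against 5008 and 4184 in wild type, with 6 lower. Sums for 8 macrophage and monocyte markers were 3143 and 4171 in lymphoma, against 10074 and 10404 in wild type, with 4 lower. Ccr2, of the same list, went the other way, with 527 and 347 in lymphoma, against 293 and 257 in wild type. Plasma cell markers (6 genes) summed to 3180 and 3672 in lymphoma, against 11638 and 7198 in wild type, with 1 lower. Most of this fall was Jchain, with 519 and 89.5 in lymphoma, against 6607 and 3766 in wild type. Prdm1 had a positive log2 difference of 0.53, with overlap.

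Erythroid precursor markers (6 genes), from cells that divide, summed to 732 and 1723 in lymphoma, against 952 and 900 in wild type, and 0 were called in limma or had an unadjusted p under 0.05. Neutrophil markers (7 genes) summed to 990 and 967 in lymphoma, against 650 and 684 in wild type, with 1 higher. That was Ngp, with 349 and 376 in lymphoma, against 134 and 125 in wild type, which made up most of the rise. The other log2 differences lay between 0.00 (Camp) and 0.44 (Ly6g). For NK and CD8 T cell markers (6 genes) the sums were 1296 and 1571 in lymphoma, against 2004 and 1330 in wild type, with 0 called in limma and, before adjustment, 1 higher and 3 lower at p under 0.05. The 7 T cell markers summed to 24009 and 26463 in lymphoma, against 22436 and 21966 in wild type. None of these 7 was called in limma, with 3 higher and 1 lower at p under 0.05 before adjustment, and 4 had positive and 3 negative log2 differences. Cd3e, a chain of the T cell receptor complex, had 7271 and 7720 in lymphoma, against 5823 and 5806 in wild type, while the surface receptor Cd5 had 2443 and 1557 in lymphoma, against 3929 and 3479 in wild type. No marker was listed at 0. The part of these cells in the histone values was not tested. Tet2 itself had 596 and 399 in lymphoma, against 980 and 1016 in wild type, a log2 difference of -1.03 (SE 0.24, limma adjusted p = 0.152 over all probe sets).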

How the data were processed

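Total RNA of 4 samples of spleen-derived CD4+ cells was measured on 4 single-colour arrays. The deposited values are intensity values on a linear scale, made with Affymetrix Expression Console, per the submitters' processing notes. For summarisation, background and normalization the sources used here give no method. Array medians lay between 130 and 142 over 35556 probe sets. Probe sets were named from GEO's platform annotation (21789 with 1 symbol, 1621 with several, 12146 not listed), and all 70 genes named by the histone probe sets kept their symbol in RefSeq by gene ID.

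From these values log2 was taken with no pseudocount or filter, and the groups were compared in limma 3.58.1 (R 4.3.3) over all 35556 probe sets, with a model of group alone, eBayes with a variance trend and Benjamini-Hochberg adjustment. There were 2 residual and 3.49 prior degrees of freedom. Errors of log2 differences are SE from this fit, n = 2 per group. Genes of the lists were taken from single-symbol probe sets, the brightest per gene. The procedure was tested on simulated data. The members, lists and tests were chosen with earlier results of these data known. Named are every linker histone, in each core class the 3 largest and the lowest log2 difference and the brightest probe set, every call, and up to 3 genes per list by p. Other members are named as values where counts are small. Promoters are from RefSeq (GRCm38.p6). Probe sets have no genome positions here, since the annotation names no build. The alternatives tried were median-centred arrays, quantile normalization, no probe sets of the lowest tercile of level, no or a robust variance trend, 1 probe set per gene, the replicate number as a block, log2 of the value plus 16, leaving out each array, a threshold of 0.1 and single-symbol members. Counting members of equal value once was chosen after seeing the data. Plots used matplotlib 3.10.9.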

Additional observations from a re-analysis of the deposited data

How the results depend on the processing

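With 2 arrays per group, the spread behind every call comes from few values. Over all probe sets 439 were called (138 higher, 301 lower), against 852 of 19938 with 1 probe set per gene, 1020 at an adjusted p under 0.1 and from 0 to 816 with 1 array left out. The 0 came without either wild type array, where 2153 higher and 1532 lower (without array 1) or 1523 higher and 1916 lower (without array 2) had an unadjusted p under 0.05 in limma. Of the 56 histone probe sets 1 was called higher, where 0.388% of all probe sets were. That call ended without either wild type array, as every call did. With 1 probe set per gene 2 of the 30 single-symbol members were called higher (H1f10 and H2ac4), where 1.82% of all genes were. At an adjusted p under 0.1, 2 of the 56 were called, where 410 of all 35556 probe sets were called higher and 610 lower. These counts say little about the family. With 1 array left out, the lone array is assumed to vary like the other group. The samples share only a replicate number (r = 0.22 between same-numbered deviations). With the replicate block 48 of all probe sets and 0 histone probe sets were called, H1f10 having an adjusted p of 0.0766, while before adjustment 10 higher and 2 lower histone probe sets had p under 0.05 in limma (17.9% and 3.57%, against 7.66% and 7.03% of all probe sets).

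The adjusted p of H1f10 lay between 0.0092 and 0.224 over its alternatives, and that of H2ac4 between 0.0319 and 0.279. The median of the histone probe sets stayed positive in every alternative run, from 0.08 without wild type array 2 to 0.54 without wild type array 1, and was 0.29 over 54 members with equal values counted once. Of all 56 members 20 changed sign in some alternative, 19 of them without a wild type array and none of them called. Among the 27 chosen by the naming rule these were 10. H3c7 was at 0.068 with quantile normalization and 0.076 with array medians subtracted. With 1 array left out, log2 differences lay between -0.20 and 0.30 for H1f3, -0.26 and 0.079 for H1f6, -0.20 and 0.019 for H1f8, -0.066 and 0.40 for H2ac1, -0.13 and 0.12 for H3c7, -0.18 and 0.84 for H4c14, and -0.31 and 1.52 for H4c6. For the several-gene H4 probe sets they lay between -0.21 and 1.03 (10403945), -0.053 and 0.52 (10404067) and -0.15 and 0.52 (10408243). No detection calls were used, so what signal over background limits is unknown for dim probe sets.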
